A study of Mus musculus with 2 samples.

Results

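Keratin genes were measured in polyadenylated RNA of the gonadal fat pad of C57BL/6J mice at 8 weeks of age, for which the labels name no treatment. This depot of white fat lies against the gonads. Members were all Ensembl genes of the deposited gene tables whose symbol is Krt and a number, with or without a letter. Keratin-associated proteins were left out. There were 54 of them among 43346 Ensembl genes, and they were chosen by name and not by level. The study held 2 libraries of 1 group, called biological replicates 1 and 2 in the labels, and no second condition. The labels name littermates of both sexes pooled and give both libraries the same donor identifier, so how many mice stand behind each library is not stated. Expected counts, the estimated number of fragments of a row, summed to 48206393 in replicate 1 and 55138711 in replicate 2. Differences between the libraries are therefore described and not tested. They may be biological or technical.

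Keratins are the intermediate filament proteins of epithelia. A filament needs an acidic type I chain and a neutral or basic type II chain, so cells make them in pairs, and the pair marks the kind of epithelium. Krt8 with Krt18 is the pair of single-layered epithelia and Krt5 with Krt14 that of basal cells, while Krt1 with Krt10 marks the upper layers of epidermis. Adipocytes are not epithelial. The mesothelium that covers the fat pad and the duct of the epididymis, beside which the depot lies in males, both make keratins.

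In both libraries the fat pad RNA held the keratins of simple and of basal epithelia. Most keratins of differentiating stratified epithelia and of hair were under 1 TPM, with Krt32 and Krt4 above it in replicate 2 alone. A gene was called expressed where neither library put it under 1 TPM, and 11 keratins were expressed. TPM is transcript abundance per length, scaled to a fixed total per library. The 11 were 20.4% of the 54, against 33.0% of all genes and 61.6% of protein-coding genes. Of the 28 type I genes 6 were expressed and of the 26 type II genes 5 were. Another 26 had at least 1 count but stayed under 1 TPM in at least 1 library. The other 17 had no count in either library. With 3 fragments taken as the floor, a count of 0 allowed those 17 genes, depending on their length, at most between 0.0264 and 0.0818 TPM in replicate 1 and at most between 0.0212 and 0.0661 TPM in replicate 2, for counting error only. Counts were whole numbers, within 0.005 of a fragment, for 53 of the 54 members, and Krt19 in replicate 2 was the exception with 8707.44.

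**Figure D1:**
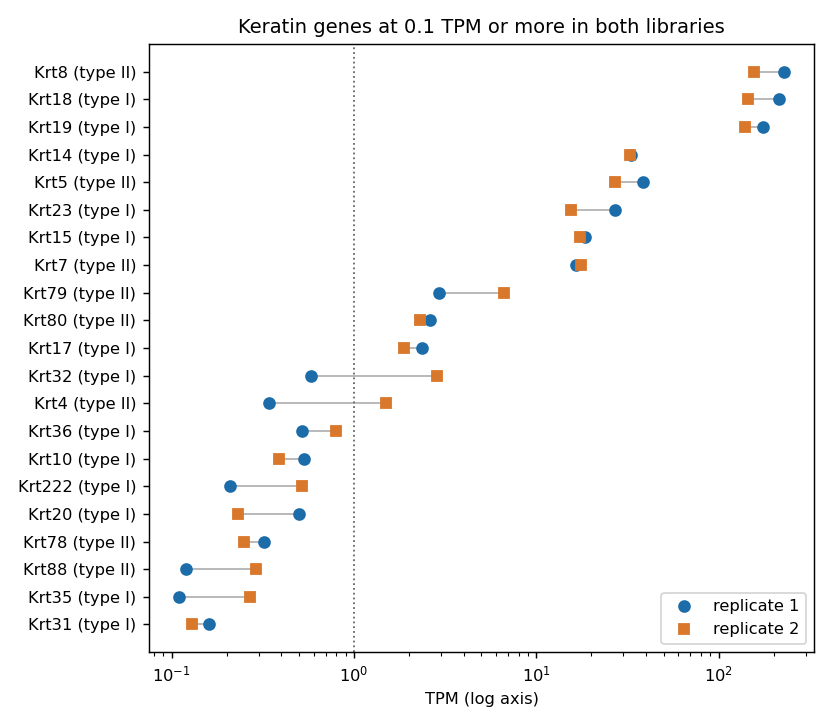
The 21 keratins at 0.1 TPM or more in both libraries, in order of mean level, with TPM on a log axis. Circles are replicate 1, squares are replicate 2 and the dotted line is 1 TPM. Krt8, Krt18 and Krt19 stood above 138 TPM in both libraries, and Krt32 and Krt4 crossed the line in replicate 2 alone.

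The keratins of simple epithelia carried most of the family's transcripts. Krt8, the type II chain of simple epithelia, was at 228.7 TPM in replicate 1 and 155.6 TPM in replicate 2, from 13547 and 11432 counts. It averaged 192.2 ± 51.7 TPM (SD, n = 2) and ranked 650 among all genes by mean TPM. Krt18, its type I partner, was at 213.9 TPM in replicate 1 and 144.7 TPM in replicate 2, a mean of 179.3 ± 49.0 TPM (SD, n = 2). Both genes of this pair were higher in replicate 1. The authors' own interval for Krt8, whose level the files do not state, ran over 222.4 to 230.0 TPM in replicate 1 and 151.4 to 157.0 TPM in replicate 2. Those intervals cover estimation within a library and not the spread between libraries. Krt19, a type I keratin without a tail domain that is typical of ducts, was at 174.9 TPM in replicate 1 and 138.7 TPM in replicate 2. It averaged 156.8 ± 25.6 TPM (SD, n = 2). Krt8, Krt18 and Krt19 together made up 81.0% of the summed keratin TPM in replicate 1 and 77.3% in replicate 2. In bulk RNA fewer cells of a type and less RNA per cell cannot be told apart.

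Krt7 and Krt20 complete this group of 5. Krt7, a type II keratin of ducts, urothelium and mesothelium, was at 16.4 TPM in replicate 1 and 17.7 TPM in replicate 2. Its level was about the same in both libraries, whereas Krt8 over Krt7 was 13.9 in replicate 1 and 8.81 in replicate 2. Krt20, the type I keratin of intestinal epithelium and urothelial surface cells, was at 0.50 TPM in replicate 1 and 0.23 TPM in replicate 2, from 32 and 18 counts. It was the member of the simple epithelial group that was not expressed. The 5 genes had a sum of 634.5 TPM in replicate 1 and 456.9 TPM in replicate 2, which was 83.2% and 80.5% of all keratin TPM.

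The transcript tables set Krt7 apart from the other abundant keratins. There were 8 keratins at 10 TPM or more in both libraries, and in 7 of them an annotated coding transcript held at least 95% of the gene's TPM in both. Krt8, Krt18, Krt5 and Krt23 have only 1 transcript in the tables, so their share of 100% is fixed. The coding transcript of Krt14 held 95.5% in replicate 1 and 97.3% in replicate 2. In Krt7 the coding transcript held 72.8% in replicate 1 and 66.7% in replicate 2. A transcript annotated as a retained intron held 23.8% in replicate 1 and 27.6% in replicate 2. On the TPM scale the coding transcript of Krt7 was at 11.96 in replicate 1 and 11.78 in replicate 2.

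All 4 keratins of the basal group were expressed, at lower levels. Krt5, the type II keratin of basal cells, was at 38.2 TPM in replicate 1 and 27.1 TPM in replicate 2, from 2813 and 2475 counts. Krt14, its type I partner, was at 32.9 TPM in replicate 1 and 32.5 TPM in replicate 2. Krt5 was the higher of the pair in replicate 1 and Krt14 in replicate 2. Krt15, a type I keratin of basal keratinocytes and of the hair follicle bulge, was at 18.6 TPM in replicate 1 and 17.5 TPM in replicate 2. Krt17, a type I keratin of basal cells of complex epithelia and of skin appendages, was at 2.35 TPM in replicate 1 and 1.88 TPM in replicate 2. Together the basal group had a sum of 92.1 TPM in replicate 1 and 78.9 TPM in replicate 2, or 12.1% and 13.9% of keratin TPM. Krt8 was above Krt5 by a ratio of 5.98 in replicate 1 and 5.74 in replicate 2.

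Of the 7 members placed in no class, 3 were expressed. Krt23, a type I keratin, was at 27.0 TPM in replicate 1 and 15.5 TPM in replicate 2, from 1355 and 965 counts. Krt79, a type II keratin found in hair follicle canal and sebaceous duct cells of mouse skin, was at 2.91 TPM in replicate 1 and 6.63 TPM in replicate 2. It was thus the higher in replicate 2, from 577 counts against 204. Krt80, a type II keratin, was at 2.62 TPM in replicate 1 and 2.29 TPM in replicate 2. The rest of this group was lower, and Krt222 had 0.21 TPM in replicate 1 and 0.52 TPM in replicate 2.

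The order of the 11 expressed keratins by mean level was Krt8, Krt18, Krt19, Krt14, Krt5, Krt23, Krt15, Krt7, Krt79, Krt80 and Krt17. Among the 10 pairs of neighbours in that order, 6 had overlapping ranges over the libraries. Within those 6, the order was the same in both libraries for Krt8 over Krt18, Krt18 over Krt19 and Krt80 over Krt17, and it differed between the libraries in the other 3. The ranges were apart for Krt19 over Krt14, Krt5 over Krt23, Krt7 over Krt79 and Krt79 over Krt80. The gap between Krt19 and Krt14 was the widest step, with 138.7 TPM as the lower value of Krt19 and 32.9 TPM as the higher value of Krt14.

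None of the 11 keratins of differentiating stratified epithelia was expressed. They had a sum of 1.27 TPM in replicate 1 and 2.28 TPM in replicate 2, and 4 of them had no count. Krt4, the type II keratin of internal stratified mucosa, was at 0.34 TPM in replicate 1 and 1.5 TPM in replicate 2, from 24 and 133 counts. Only its replicate 2 value passed 1 TPM. Krt13, the type I partner of Krt4, had 0 counts in replicate 1 and 1 count in replicate 2. Among the epidermal pair, Krt10 was at 0.53 TPM in replicate 1 and 0.39 TPM in replicate 2. Krt1 was at 0.01 TPM in replicate 1 and 0.04 TPM in replicate 2, so the type I and type II chains of that pair were not at similar levels. Krt78, a type II keratin, was at 0.32 TPM in replicate 1 and 0.25 TPM in replicate 2.

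The activation keratins, which skin makes after wounding, were Krt6a, Krt6b and Krt16. None of the 3 had a single count in either library. Krt6a and Krt6b are near-identical copies, and reads shared between them could be split, but there were none to split.

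Hair and root sheath keratins were the largest class, with 24 measured members, and none was expressed. They had a sum of 1.67 TPM in replicate 1 and 4.36 TPM in replicate 2, and 10 of them had no count. Krt32, a type I hair keratin, was at 0.58 TPM in replicate 1 and 2.86 TPM in replicate 2, from 17 and 103 counts. In both libraries every Krt32 count lay on a transcript annotated as processed, without a coding frame, and the coding transcript was listed at 0. Of the 7 exons of the coding transcript, 4 overlap exons of the other and 3 do not. An antisense gene, Gm11571, overlaps Krt32 and was listed at 0 in both libraries. The expressed keratins Krt8, Krt5, Krt7 and Krt80 each overlap a gene on the opposite strand that has no value here. Whether the counting used strand is not given in the sources used here. Krt36, a type I keratin of hair and tongue papillae, was at 0.52 TPM in replicate 1 and 0.80 TPM in replicate 2. Krt71, a type II keratin of the inner root sheath, was at 0.03 TPM in replicate 1 and 0.05 TPM in replicate 2, from 2 and 5 counts.

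The balance of the types was nearly the same in both libraries. Type II keratins had a sum of 289.9 TPM in replicate 1 and 211.6 TPM in replicate 2. Type I keratins had a sum of 472.4 TPM in replicate 1 and 356.0 TPM in replicate 2. The ratio of type II to type I was 0.614 in replicate 1 and 0.594 in replicate 2, a mean of 0.604 ± 0.0138 (SD, n = 2). Type I transcripts were thus in excess. On counts, which also grow with transcript length, the mean ratio was 0.833. Within pairs, Krt8 over Krt18 was 1.07 in replicate 1 and 1.08 in replicate 2. Krt5 over Krt14 was 1.16 in replicate 1 and 0.835 in replicate 2, so that ratio passed 1 in replicate 1 alone.

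**Figure D2:**
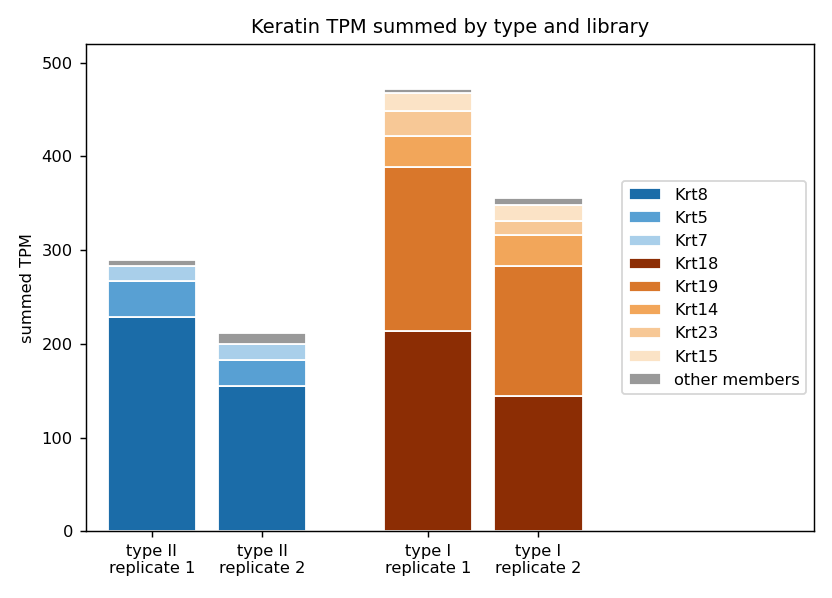
Keratin TPM summed by type and library, with each bar split into the genes named in the legend. Type II bars reached 289.9 TPM in replicate 1 and 211.6 TPM in replicate 2, and type I bars 472.4 and 356.0 TPM. Krt8 fills most of the type II bars, while Krt18 and Krt19 share the type I bars.

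All members lie in the 2 keratin clusters of the mouse genome. On mm10, chr11:99232761-100269871 holds 27 keratins, all type I, and chr15:101347444-102032027 holds the 26 type II genes and Krt18. Krt18 sits at the end of the type II cluster next to Krt8, and the starts of the pair are 23698 bases apart on opposite strands. There were 5 expressed keratins in the chromosome 11 cluster and 6 in that of chromosome 15. Expressed keratins and keratins with no count were neighbours. Krt14 lies next to Krt16, which had no count, and Krt5 lies between Krt6a, with no count, and Krt71. Among genes with values here, the same intervals hold 61 others on chromosome 11, 23 of them keratin-associated proteins, and 3 on chromosome 15. None of these was expressed. Further annotated genes on chromosome 15, such as Gm36026 and Gm671, have no value here.

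**Figure D3:**
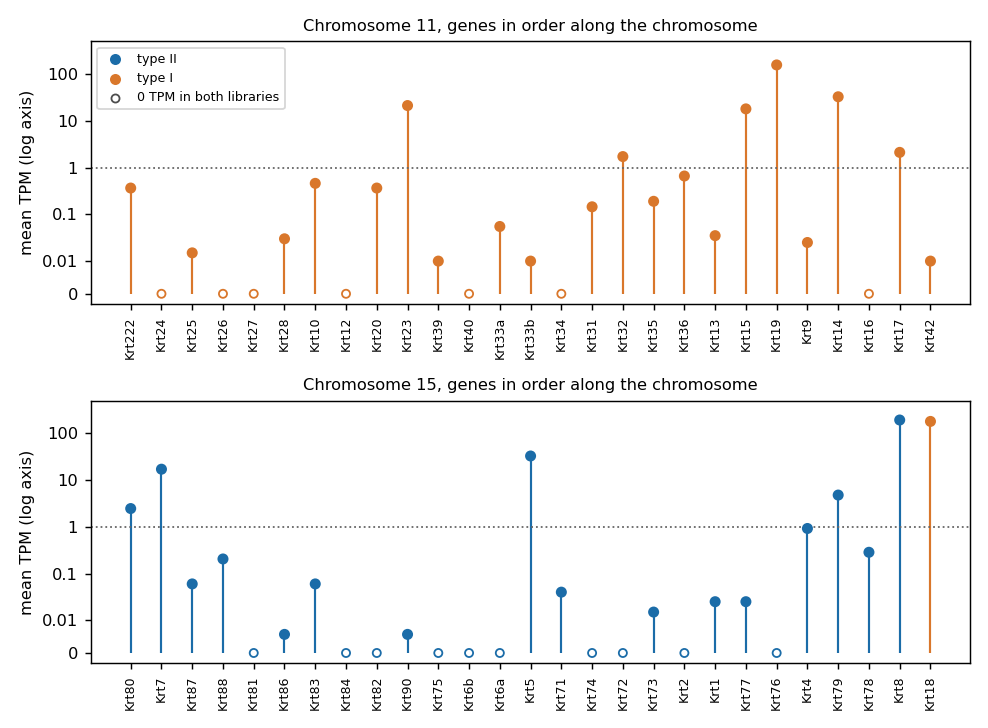
Mean TPM of the 2 libraries on a log axis for each keratin, in gene order along chromosomes 11 and 15. Filled points have a count in at least 1 library, open points are at 0 TPM in both and the dotted line is 1 TPM. High genes and genes at 0 are interspersed along both clusters, and Krt8 and Krt18 stand side by side at the end of the chromosome 15 cluster.

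Promoter sequence from RefSeq on GRCm38.p6, the same mouse build, was at hand for 36 keratins in 37 entries, 7 of them expressed. The letters TATAAA, the core of a TATA box, were looked for on both strands of the 60 bases before the RefSeq start, a choice made after the levels had been seen. They were in 0 of 7 entries of expressed keratins, in 15 of 30 entries of the other keratins and in 3.92% of all 32851 RefSeq promoter entries. The result depends on the exact letters. The shorter ATAAA, which TATAAA contains, was in 3 of 7 entries of expressed keratins, in 20 of 30 others and in 11.8% of all. For 3 of the 7 expressed entries, Krt8, Krt14 and Krt7, the RefSeq start lies 140, 1518 and 1360 bases from the GENCODE gene start. A match is a description of these letters and no evidence of use. The 60 bases are shown for 2 expressed and 3 other keratins whose stretch lies outside the annotated gene. The 3 others shown all hold TATAAA and do not represent their 30 entries, of which 15 hold it. Krt36 and Krt78, not expressed and not shown, lack it. Each stretch reads 5′ to 3′ on the gene's strand, with TATAAA in capitals.
Krt5, expressed, chr15:101712906-101712965, minus strand: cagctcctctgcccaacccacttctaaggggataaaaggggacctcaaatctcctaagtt
Krt79, expressed, chr15:101940325-101940384, minus strand: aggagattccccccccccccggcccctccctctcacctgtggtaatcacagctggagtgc
Krt10, not expressed, chr11:99389365-99389424, minus strand: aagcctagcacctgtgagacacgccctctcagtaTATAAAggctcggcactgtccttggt
Krt20, not expressed, chr11:99438154-99438213, minus strand: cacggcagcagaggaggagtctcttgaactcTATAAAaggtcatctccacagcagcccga
Krt31, not expressed, chr11:100050552-100050611, minus strand: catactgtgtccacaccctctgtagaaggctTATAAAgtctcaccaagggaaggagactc
The stretch of Krt5 holds ATAAA and that of Krt79 holds neither run. Krt31, a type I hair keratin, was at 0.16 TPM in replicate 1 and 0.13 TPM in replicate 2.

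Between the libraries, the summed keratin level was higher in replicate 1, and Krt8, Krt18 and Krt19 carried most of that difference. These 3 genes had a sum of 617.5 TPM in replicate 1 and 439.0 TPM in replicate 2. All 54 had a sum of 762.3 TPM in replicate 1 and 567.6 TPM in replicate 2, a ratio of 1.34 and a mean of 665.0 ± 137.7 TPM (SD, n = 2). The hair and root sheath group and the differentiation group had the higher sums in replicate 2, each mainly through 1 low gene. Krt32, at 0.58 TPM in replicate 1 and 2.86 TPM in replicate 2, carried most of the difference of the hair group. Krt4, at 0.34 and 1.5 TPM in the same order, carried that of the differentiation group, where Krt10 and Krt78 were higher in replicate 1. As a share of all gene counts the family was 0.0887% in replicate 1 and 0.0723% in replicate 2. Of the 11 expressed keratins, 9 were higher in replicate 1, where 64.9% of all expressed genes were higher. Krt7 and Krt79 were higher in replicate 2. The log2 ratio of (TPM + 1), replicate 1 over replicate 2, ran over -0.96 to 0.76 among them. Its median was 0.22, beside 0.12 over the 14303 expressed genes. Krt14, at a log2 ratio of 0.02, and Krt15, at 0.08, lay below that shift of all genes. Both turned negative under TMM, DESeq2 and FPKM scaling and when the median gene was set to no difference. The Krt8, Krt18, Krt5 and Krt23 log2 ratios were 0.55, 0.56, 0.48 and 0.76, all above the shift.

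The 2-fold limit was set on the ratio of (TPM + 1), for genes whose counts averaged at least 20. Of 18 keratins with that count, 1 was over 2-fold apart, while 2.70% of all 16920 such genes were, 1.54% with the higher level in replicate 1 and 1.15% with it in replicate 2. It was Krt32, with a log2 ratio of -1.29. Krt79 lay just inside the limit at -0.96 and Krt4 followed at -0.90. With a pseudocount of 0.1 TPM in place of 1 all 3 were over 2-fold apart, as were 6.35% of all genes, 2.13% with the higher level in replicate 2.

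**Figure D4:**
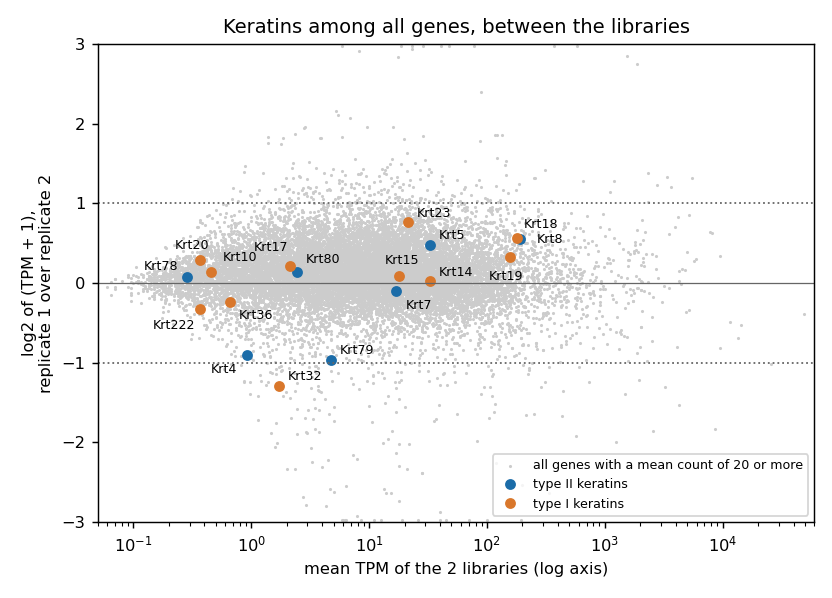
Log2 ratio of (TPM + 1), replicate 1 over replicate 2, against mean TPM on a log axis, for genes whose counts averaged at least 20. Grey points are all such genes, with 23 beyond the axis drawn at its edge, blue and orange points are type II and type I keratins, and dotted lines mark 2-fold. Krt32 lies below the lower line at -1.29, with Krt79 and Krt4 just above that line.

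Genes that build on keratin filaments were read beside the family. Desmosomes are the cell junctions to which keratin filaments attach, and 13 of 18 measured genes of desmosomes and plakins were expressed, beside 61.6% of all protein-coding genes. Jup, which encodes plakoglobin, was at 195.9 TPM in replicate 1 and 163.6 TPM in replicate 2. Perp, a desmosomal membrane protein of stratified epithelia, was at 68.1 TPM in replicate 1 and 54.6 TPM in replicate 2. Pkp4 was at 45.1 TPM in replicate 1 and 38.9 TPM in replicate 2, and Pkp2 at 29.5 and 35.3 TPM in the same order. Both encode plakophilins. Dsp, the desmoplakin gene that links keratins to the junction, was at 19.8 TPM in replicate 1 and 8.43 TPM in replicate 2 and was the member over 2-fold apart, as were 1.54% of all genes in that direction. Dsg3 and Dsc3, the desmosomal cadherins of stratified epithelia, stayed at or under 0.03 TPM in both libraries.

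Hemidesmosomes anchor the keratins of basal cells to the basement membrane, and all 8 of their measured genes were expressed, beside 61.6% of protein-coding genes. Cd151, a tetraspanin that many cell types make, was at 505.2 TPM in replicate 1 and 627.5 TPM in replicate 2. Itga6, an integrin subunit, was at 40.4 TPM in replicate 1 and 55.1 TPM in replicate 2. The linker gene Dst was at 31.7 TPM in replicate 1 and 31.8 TPM in replicate 2. The lowest of the list were Col17a1, the collagen of hemidesmosomes, at 6.68 TPM in replicate 1 and 6.09 TPM in replicate 2, and Lama3, a laminin chain, at 4.53 and 4.20 TPM. Of 7 basal epithelial markers, Krt5, Krt14, Krt15 and Itga6 among them, 6 were expressed, beside 61.6% of protein-coding genes. The basal cell regulator Trp63 was at 23.5 TPM in replicate 1 and 16.2 TPM in replicate 2. Ngfr was lower, at 3.33 TPM in replicate 1 and 1.98 TPM in replicate 2. Aqp3 was not expressed, at 0.03 TPM in replicate 1 and 0.24 TPM in replicate 2.

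Keratins were a smaller part of the filament transcripts than Vim, the vimentin gene of mesenchymal cells. Vim was at 1116 TPM in replicate 1 and 1767 TPM in replicate 2, above the sum of all 54 keratins in each. It was the higher in replicate 2, unlike Krt8 and Krt18. Of the 16 other intermediate filament genes measured, 8 were expressed, beside 33.0% of all genes and 61.6% of protein-coding genes. Lmna, a nuclear lamin, was at 102.6 TPM in replicate 1 and 106.2 TPM in replicate 2. Des, the muscle filament desmin, was at 76.1 TPM in replicate 1 and 55.1 TPM in replicate 2. Lmnb2, a further lamin, was at 11.5 TPM in replicate 1 and 9.92 TPM in replicate 2. The lowest were the neurofilament genes Nefl and Nefm, at or under 0.05 TPM in both libraries.

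Markers of some of the cells that could hold these keratins were present in both libraries, and their part in the keratin levels was not tested. Markers of the female reproductive tract were not read, though the labels name both sexes. All 19 genes of the list of epithelial regulators and junctions were expressed, beside 61.6% of protein-coding genes, and 18 of them were higher in replicate 1, beside 64.9% of all expressed genes. They had a sum of 2095 TPM in replicate 1 and 1352 TPM in replicate 2, a ratio of 1.55 beside 1.34 for the keratins. Spint2, a protease inhibitor, led with 671.6 TPM in replicate 1 and 364.0 TPM in replicate 2. The claudins Cldn3, Cldn7 and Cldn4 followed, and of the 19 genes only Cldn7, at 142.0 TPM in replicate 1 and 68.5 TPM in replicate 2, was over 2-fold apart, as were 1.54% of all genes in that direction. The lowest were the transcription factors Ovol2, at 2.32 TPM in replicate 1 and 2.43 TPM in replicate 2, and Ovol1, at 2.60 and 1.72 TPM.

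All 14 epididymal markers were expressed, again beside 61.6% of protein-coding genes. They had a sum of 34236 TPM in replicate 1 and 22655 TPM in replicate 2, a ratio of 1.51. Of the 14, 12 were higher in replicate 1, beside 64.9% of all expressed genes, and Crisp1 and Cuzd1 were higher in replicate 2. Crisp1 was at 1453 TPM in replicate 1 and 2545 TPM in replicate 2. Gpx5, at 9518 and 6082 TPM, and Lcn8, at 7811 and 3137 TPM in the same order, carried most of the difference between the sums. None of the list was at 0, and its lowest gene, the receptor gene Ros1, was at 20.8 TPM in replicate 1 and 13.4 TPM in replicate 2. Of 8 mesothelial markers measured, 7 were expressed, beside 61.6% of protein-coding genes. The 8 had sums of 117.7 TPM in replicate 1 and 135.3 TPM in replicate 2, and Upk3b led at 37.3 and 37.9 TPM. Msln, the mesothelin gene, was at 9.24 TPM in replicate 1 and 17.8 TPM in replicate 2. Cldn15, a claudin, was at 20.2 TPM in replicate 1 and 28.8 TPM in replicate 2. Msln and Cldn15 carried most of the difference between the mesothelial sums. Of the 7 expressed members, 3 were higher in replicate 1, beside 64.9% of all expressed genes, and 4 in replicate 2. Their median log2 ratio was -0.02. All 12 adipocyte markers were expressed, beside 61.6% of protein-coding genes, so the labelled tissue was seen in both libraries. They had sums of 20272 TPM in replicate 1 and 20467 TPM in replicate 2. The near-equal sums held opposite differences, with 5 markers higher in replicate 1, beside 64.9% of all expressed genes, and 7 in replicate 2. Cfd was at 6724 TPM in replicate 1 and 3717 TPM in replicate 2, and Cidec at 1049 and 2068 TPM in the same order. Lep, the leptin gene, was at 92.1 TPM in replicate 1 and 574.8 TPM in replicate 2. It was over 2-fold apart, as were 1.15% of all genes in that direction.

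**Figure D5:**
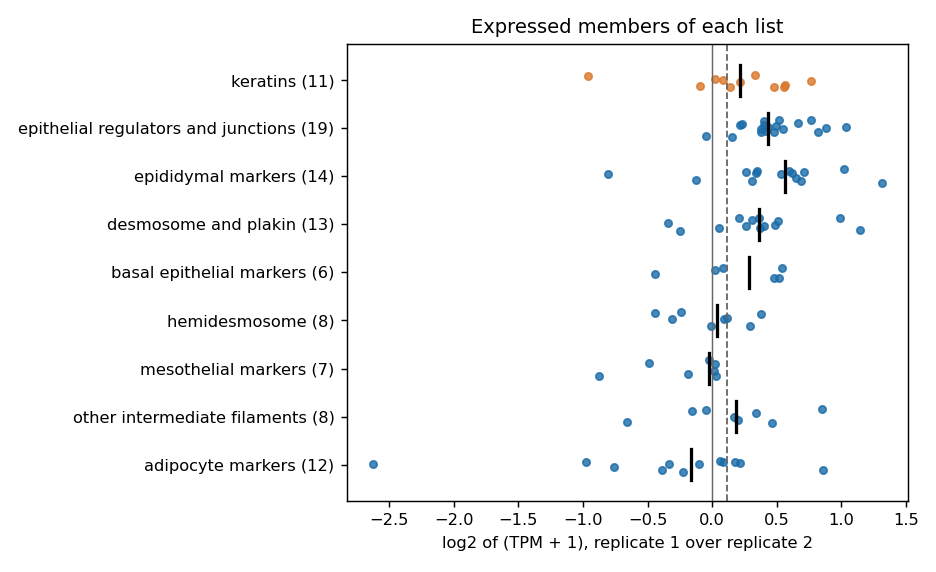
Log2 ratio of (TPM + 1), replicate 1 over replicate 2, for the expressed members of each list, with the number of members in brackets. Each point is a gene, vertical bars are medians and the dashed line is the median of all expressed genes at 0.12. The basal list shares Krt5, Krt14 and Krt15 with the keratins and Itga6 with the hemidesmosome list. Epithelial and epididymal genes lie mostly right of 0, while the mesothelial median is -0.02.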

How the data were processed

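The deposited gene and transcript tables of both libraries were used. Per the file headers, the authors gave each row an expected count, a TPM, an FPKM, posterior means of TPM and FPKM, interval bounds and, for transcripts, the percent of the gene's TPM. The accompanying notes name build mm10 and GENCODE M4. The aligner is not given in the sources used here, nor is the quantifier. Per the labels, RNA over 200 nt was read as strand-specific pairs of 76 nt. TPM was used as deposited, computed over all 69691 rows, 96 spike-in rows included. Rows that are not Ensembl genes entered no count of genes and no list. They are part of the TPM scaling, the floors and the opening totals of expected counts. Ensembl genes alone summed to 47106979 expected counts in replicate 1 and 54129473 in replicate 2. Tables on build mm9 were not used here.

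Symbols were matched by identifier for 42462 of 43346 genes. Positions, biotypes and transcript names are from GENCODE M21 on mm10. The type of each keratin was taken from its number. The log2 ratio used TPM with a pseudocount of 1, which understates differences of low genes. TMM factors (edgeR 4.0.16) and DESeq2 1.42.0 size factors were computed in R 4.3.3 on rounded expected counts. The code of the 2-fold rule was tested on simulated data. Floors of 3 fragments cover counting error only.

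Named were the expressed keratins, the 5 next highest, those over 2-fold apart and 10 textbook keratins, and, from each list, genes among its 4 highest and 2 lowest. A few more, such as Krt78, Krt31, Dsp, Trp63, Msln, Lor and Krtdap, were named after their values were seen. The members, lists and alternatives were chosen with earlier results of these data known. With 1 group of 2 replicates no test was possible and no p-value was computed.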

Additional observations from a re-analysis of the deposited data

How the results depend on the processing

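With a level of 0.1 TPM in place of 1 TPM, 21 keratins were expressed, beside 43.3% of all genes. Using 1 library alone, the count was between 11 and 13, with 13 in replicate 2, where Krt32 and Krt4 passed, and 11 in replicate 1. Posterior mean TPM gave 12, the added gene being Krt13 at 8.52 TPM in replicate 1 and 13.8 TPM in replicate 2, from at most 1 count. There the mean lay almost wholly on a transcript of 207 bases, and the authors' upper bound was 25.3 TPM in replicate 1 and 41.5 TPM in replicate 2. The ratio of type II to type I was 0.587 by posterior mean TPM and 0.833 by expected counts, and it was between 0.594 and 0.614 for 1 library alone. The summed keratin TPM was between 567.6 and 762.3 for 1 library alone. By posterior mean TPM, 6 in place of 7 of the 8 keratins at 10 TPM or more had a coding transcript at 95% or more. That of Krt14 then held 94.98% in replicate 1. The number of keratins over 2-fold apart was 3 with a pseudocount of 0.1 TPM (Krt32, Krt79 and Krt4, with 1074 of all genes in place of 456). It was 2 under TMM, DESeq2, FPKM and median scaling (Krt32 and Krt79), beside 2.54%, 2.55%, 2.23% and 2.44% of all genes, and 0 with a minimum mean count of 100, which leaves Krt32 out, beside 2.61% of all genes. Of 78 alternative log2 ratios of single keratins, 33 moved from the main value by more than its counting error. Under DESeq2 size factors Krt8 was at 0.38, Krt18 at 0.39 and Krt19 at 0.16, in place of 0.55, 0.56 and 0.33. Of the 78, 8 had the other sign, all of Krt14 and Krt15. No paired analysis was possible because there was 1 group. Depth limits the members under 10 counts, whose levels cannot be ordered.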

Other observations

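Genes that work beside keratins in hair and in cornified epidermis were mostly under 1 TPM, as were the keratins of those tissues. By the same rule 33.0% of all genes and 61.6% of protein-coding genes were expressed. Of 57 keratin-associated protein genes, which encode the matrix between the keratins of hair, none was expressed and 52 had no count in either library. The highest, Krtap3-3 in the chromosome 11 cluster, was at 0.83 TPM in replicate 1 and 0.50 TPM in replicate 2, from 16 and 12 counts. Of 12 cornified envelope genes only Tgm1, a transglutaminase, was expressed, at 3.33 TPM in replicate 1 and 2.71 TPM in replicate 2, and 5 had no count. Flg and Hrnr, which encode filaggrin and hornerin, were among those 5. Krtdap, a gene of differentiating keratinocytes, was at 0 TPM in replicate 1 and 1.14 TPM in replicate 2. Lor, the loricrin gene, was at 0.69 TPM in replicate 1 and 0.43 TPM in replicate 2, so the low members of this list did not share a direction.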
